A study of Homo sapiens with 15 samples.

Results

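Gene expression was compared between 24 and 48 h of expression of an inducible CDK2 hairpin RNA in IMR32, a human neuroblastoma cell line in which MYCN is amplified. Of the 15 arrays of the series, 6 belong to this comparison: 3 of cells harvested at time 24 and 3 at time 48. They were chosen by the time in their titles, not by any measured value. The labels give the times with no unit, and hours are read here from knowledge of the study. Every array of the series came from the same line, which carries the tetracycline repressor behind a constitutive CMV promoter and a pTER construct whose hairpin is aimed at nucleotides 546 to 566 of the CDK2 mRNA. That line was isolated as a clone in successive rounds of drug selection, so the results describe 1 clone. Both groups had received doxycycline at 100 ng/ml in medium with 10% fetal calf serum, and they differed in the time since its addition. The remaining 9 arrays, 3 each at 0, 8 and 72 h, entered the same fit and served to compare this interval with the 8 to 24 h and 48 to 72 h intervals. The series holds no arm without doxycycline and none with another hairpin, so time in culture, doxycycline and depletion of CDK2 cannot be told apart. Nothing in the labels says that the 3 arrays of a time came from separate cultures, and the p-values therefore measure only the spread between these arrays.

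CDK2 is the kinase that cyclins E and A activate at the start of S phase and during it. With CDK4 and CDK6 it phosphorylates the retinoblastoma protein, which releases the E2F factors that switch on the genes of DNA replication. The genes of mitosis are switched on later in the cycle by the MuvB core together with B-MYB (MYBL2) and FOXM1, at promoter elements called CHR. When p53 is active it induces CDKN1A (p21), an inhibitor of CDK2, and both sets of genes are then repressed through the pocket proteins. Neuroblastoma arises from the sympathetic lineage of the neural crest, and its cells can keep features of noradrenergic neurons.

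Messenger RNA was measured on Affymetrix U133 Plus 2.0 arrays as a linear signal, and log2(signal + 16) was compared between times with limma across 11774 genes. Each log2 difference below is 48 h minus 24 h unless another interval is named, and its error is the standard error (SE) of the fit. A gene is said to have risen or fallen where its Benjamini-Hochberg adjusted p was under 0.05. Signals are given in the order of replicates 1 to 3, and a signal of 1 gene cannot be set against that of another, since probe sets differ in brightness. In each gene whose 6 signals are printed, the 24 h and 48 h arrays did not overlap. The median signal of all probe sets was 17.6 ± 0.458 (SD, n = 3) at 24 h and 18.5 ± 0.907 at 48 h. The ratio of the GAPDH probe sets at the 3' and 5' ends, a sign of RNA integrity, lay between 1.0 and 1.07 on the 6 arrays. Within a time the arrays correlated at 0.988 to 0.992 over the genes tested, and between the times at 0.966 to 0.977.

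The targeted transcript was already low when the interval began. CDK2 read a mean of 232 ± 16.3 (SD, n = 3) at 0 h. It read 81.0, 87.8 and 72.4 at 24 h and 52.7, 53 and 40.1 at 48 h, so the groups did not overlap, and the log2 difference was -0.58 ± 0.14 (SE, adjusted p = 0.0062). Most of the fall in signal since 0 h thus preceded the interval. A further CDK2 probe set gave -0.43, which did not pass the threshold when probe sets were tested singly (adjusted p = 0.27), and another read under 8 on all 6 arrays.

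Markers of the labelled cell type were present. Of 12 noradrenergic neuroblastoma markers 9 passed the filter on low signal, among them MYCN, PHOX2A, GATA3 and HAND2, but TH, the enzyme that opens catecholamine synthesis, was near background with means of 0.833 and 2.0. The summed signal of the 11 markers that had a probe set ranged from 11292 to 12490 at 24 h and from 12803 to 14948 at 48 h. Most of that sum came from MYCN, GATA3, PHOX2A and CHGA, none of which passed the threshold by limma (adjusted p = 0.126, 0.488, 0.324 and 0.0507). Of the 9 markers past the filter 4 rose and 0 fell. Markers of immune, endothelial and epithelial cells summed to between 47.7 and 84.2 on every array of both times. Fibroblast markers summed to 654 to 729 at 24 h and to 880 to 974 at 48 h. Of these 11 markers 6 passed the filter: the means went from 366 to 368 for COL1A1, from 99.4 to 122 for THY1, from 64.4 to 72.3 for PDGFRB, from 16.4 to 18.9 for TAGLN, from 41.0 to 136 for LUM and from 78.1 to 154 for ACTA2. Below the filter, COL1A2 went from 3.47 to 14.7 without overlap, COL3A1 from 4.90 to 10.6 and DCN from 12.7 to 18.9, while FAP and POSTN were near 0 at both times. Schwann cell and mesenchymal markers summed to 5877 to 6284 and to 4881 to 5680, and 5 of 14 passed the filter. In that list the means at 24 and 48 h were 4039 and 3143 for VIM, 414 and 332 for SNAI2 and 180.0 and 124 for YAP1, while FOXD3 read 20.5 and 29.1, TWIST1 1400.1 and 1460 and SOX10, below the filter, 3.30 and 9.07 without overlap. S100B was near 0 at both times. The part of these marker shifts in the results was not tested.

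Between 24 and 48 h, 2702 of 11774 genes changed (22.9%), 1462 higher (12.4%) and 1240 lower (10.5%). The large changes were mostly falls: 171 genes (1.45%) fell by a log2 difference of at least 1 and 62 (0.527%) rose by as much. Of the 171, 97 belonged to 7 lists of genes for DNA replication, mitosis and DNA repair, and 74 did not. The interval before it, 8 to 24 h, changed 681 genes (5.78%) and the interval after it, 48 to 72 h, changed 1258 (10.7%), each sharing 3 arrays with the interval described here. With each array centred on its median, which shifts the median difference of all genes from 0.04 to 0.00, 953 genes were higher and 1261 lower.

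**Figure D1:**
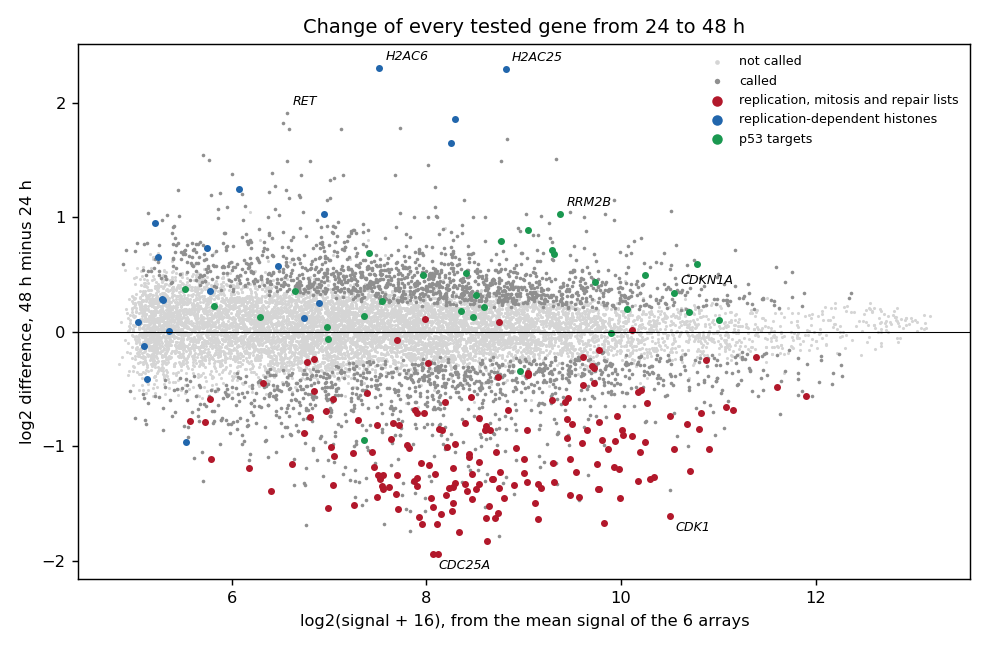
Change from 24 to 48 h of all 11774 genes tested (vertical axis, log2 difference) against their mean level on the 6 arrays (horizontal axis, log2 of signal plus 16), with 3 groups of genes coloured. Of the genes of replication, mitosis and repair 165 of 173 fell, over the whole range of levels and with a median of -1.06, and H2AC6 and H2AC25 are the highest points at 2.30 and 2.29.

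The arrays of a time were not alike in level. The third 48 h array was the lowest of its group in 148 of 173 replication, mitosis and repair genes and the highest in 6. Over all genes tested it was lowest in 36.6% and highest in 33.1%. Among the 1462 genes that rose it was the highest of the 3 in 52.3%. The third 24 h array was also the lowest of its group in 96 of the 173 (55.5%) and the highest in 38. Over all genes tested that array was lowest in 39.4%. Without the third 48 h array 1887 genes changed, and 160 of the 173 genes still fell, against 165 with it. Leaving out any other array of either time gave between 2019 and 2445 changed genes and between 159 and 164 falls. Each such fit also has fewer arrays, and the part of this array was not separated from that.

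Genes of DNA replication fell without exception among those that license and build the fork. All 38 measured members of that list fell (10.5% of all genes tested fell), with a median of -1.0 and a range from -1.68 to -0.45. MCM10, which loads the polymerase machinery at origins, read 381, 400.0 and 429 at 24 h and 116, 130.4 and 99.5 at 48 h. The 48 h arrays all lay far below the 24 h arrays, and the log2 difference was -1.68 ± 0.11 (adjusted p = 2.28e-08). CDC6, the factor that brings the MCM helicase to origins, went from 399, 411 and 419 to 125, 136 and 116, a difference of -1.59 ± 0.08 (adjusted p = 3.74e-09) with little spread in either group. FEN1, the flap nuclease of lagging-strand synthesis, changed by -1.45 ± 0.12, CDC45 of the CMG helicase by -1.42 ± 0.14, and PCNA, the sliding clamp, by -0.85 ± 0.07 (adjusted p = 9.98e-08).

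Enzymes that make deoxynucleotides moved the same way, 11 of 12 being lower (median -0.64). RRM2, the small subunit of ribonucleotide reductase, read 1406, 1451 and 1193 and then 487, 502 and 285, a difference of -1.67 ± 0.18 (adjusted p = 3.17e-06). Thymidine kinase TK1 changed by -1.63 ± 0.10, the large reductase subunit RRM1 by -1.27 ± 0.09 and thymidylate synthase TYMS by -1.02 ± 0.07. CAD, which opens pyrimidine synthesis, was the member that did not pass (-0.16 ± 0.11, adjusted p = 0.323, named after its value was seen). The exception in ribonucleotide reductase was RRM2B, the p53-inducible small subunit, which rose and is described with the p53 targets.

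The activators of these genes fell as well. E2F1, the factor that drives replication genes, read 350.9, 339 and 400.3 at 24 h and 124, 128 and 86.9 at 48 h. No 48 h array came near the 24 h range, and the log2 difference was -1.57 ± 0.12 (adjusted p = 6.84e-08). CDC25A, the phosphatase that activates CDK2 and CDK1, had the largest fall of any gene tested, from 471, 358 and 394 to 97.6, 121 and 68.1 (-1.95 ± 0.15, adjusted p = 7.15e-08). The third 48 h array was the lowest for both. Of the 20 measured G1 and S cyclins, CDKs and E2F factors, 10 fell and 3 rose (median -0.31). The atypical repressors E2F8 (-1.69 ± 0.22) and E2F7 (-1.32 ± 0.10) fell, as did CCNA2 (-1.30 ± 0.13), CCNE2 (-1.26 ± 0.16) and CCNE1 (-0.51 ± 0.10), the cyclins A2, E2 and E1 that bind CDK2. The 3 that rose were CDK6 (0.62 ± 0.11), TFDP2, the dimer partner of E2F factors (0.46 ± 0.09), and CDK7 of the CDK-activating kinase (0.24 ± 0.07), all named after their values were seen. The call of CDK7 was lost (adjusted p = 0.0509 without 24 h replicate 2, 0.0897 without 48 h replicate 2, 0.0966 without 24 h replicate 3 and 0.0739 without 48 h replicate 3). Members that did not pass included CCND1 (cyclin D1) at -0.13 ± 0.08 and CDK4 at -0.09 ± 0.07.

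**Figure D2:**
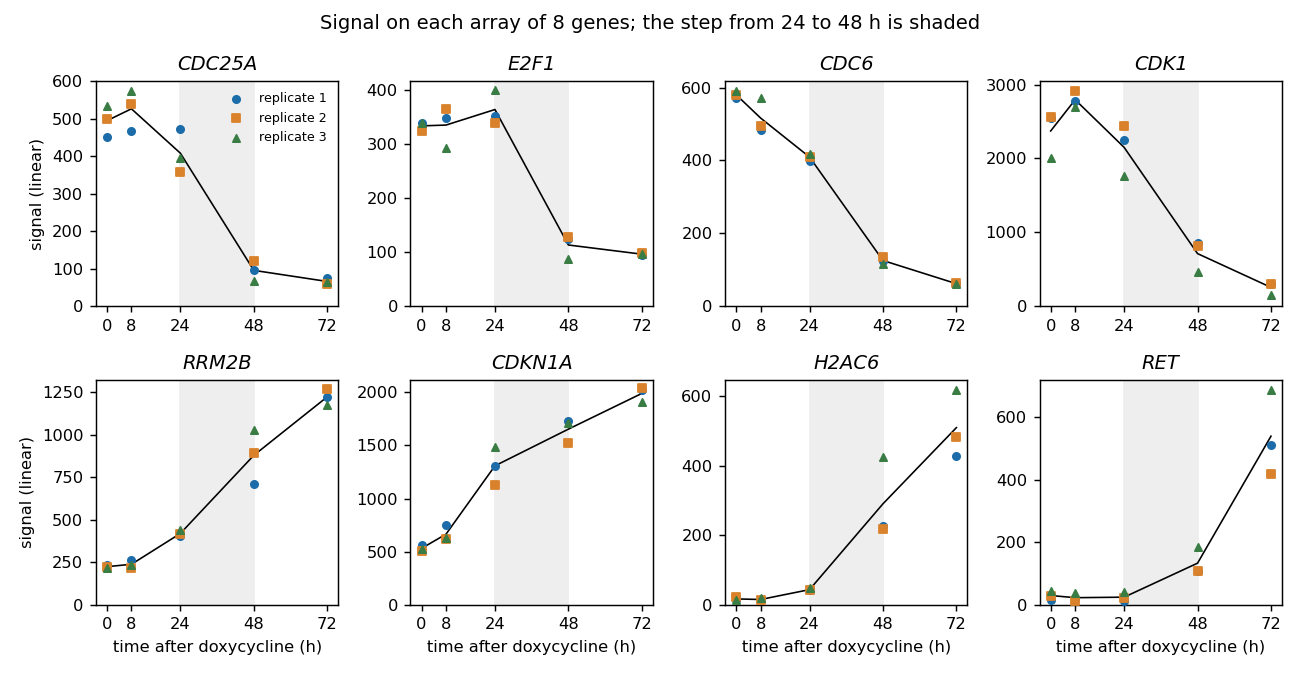
Signal of 8 genes on each of the 15 arrays (symbols, one per replicate number; the line joins the group means) against hours after doxycycline, with the interval from 24 to 48 h shaded and every vertical axis starting at 0. CDC25A, E2F1, CDC6 and CDK1 drop within the shaded interval, E2F1 after a change of 0.12 from 8 to 24 h that did not pass the threshold, RET leaves its low level there, and H2AC6, which had risen by 0.94 from 8 to 24 h, rises further.

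CDK inhibitors and pocket proteins showed fewer changes, with 5 of 14 lower and 1 higher (median -0.26). CDKN1A, the p53-induced inhibitor p21, read 1308, 1127 and 1489 at 24 h and 1727, 1518 and 1714 at 48 h, a difference of 0.34 ± 0.10 (adjusted p = 0.0154). Its groups were separate by a narrow margin, and the call was lost when certain single arrays were left out (adjusted p = 0.0544 without 48 h replicate 1, 0.0942 without 24 h replicate 2 and 0.0635 without 48 h replicate 3). The inhibitor CDKN1B (p27) gave -0.16 ± 0.12 (adjusted p = 0.364), and the retinoblastoma gene RB1 gave -0.10 ± 0.11 (adjusted p = 0.569). Among the members that fell, CDKN3, a phosphatase acting on CDKs (-1.03 ± 0.15), and RBL1, the pocket protein p107 (-0.82 ± 0.12), kept the call when any array of either time was left out. CDKN1C, LIN54 and LIN9 gave -0.42, -0.58 and -0.41 and did not keep it: 2 of the 5 falls remained without 24 h replicate 1 or without 48 h replicate 1, and 3 without 24 h replicate 2 or without 24 h replicate 3. LIN9 was named after its value was seen.

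Genes of mitosis made up the largest block of falls. Of 95 measured in 4 lists, 92 fell. They comprised all 20 mitotic kinases and CDC25 phosphatases (median -1.10), 29 of 30 kinetochore and spindle checkpoint genes (median -1.17), all 29 spindle, kinesin and cytokinesis genes (median -1.34), and 14 of 16 genes of condensin, cohesin, topoisomerase II and MKI67 (median -0.78). CDK1, the kinase of mitotic entry, read 2253, 2436 and 1762 at 24 h and 859, 809 and 467 at 48 h, replicate 3 being the lowest at both times (-1.61 ± 0.22, adjusted p = 2.99e-05). AURKB, kinase of the chromosomal passenger complex, went from 483, 490.2 and 459 to 169.5, 153 and 84.7 (-1.75 ± 0.16, adjusted p = 3.49e-07). HMMR, which binds spindle microtubules, went from 578, 726 and 484 to 165, 199 and 109 (-1.83 ± 0.22, adjusted p = 7.74e-06), and the groups again stood well apart.

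The transcription factors that act on mitotic promoters were among the falls: MYBL2 changed by -1.94 ± 0.17 (adjusted p = 2.28e-07) and FOXM1 by -1.62 ± 0.13 (adjusted p = 1.21e-07). At the kinetochore, SPC25 of the NDC80 complex (-1.68 ± 0.15), DSN1 (-1.55 ± 0.20) and CENPI (-1.52 ± 0.16) fell. Separase (ESPL1) changed by -1.59 ± 0.16, the spindle motor KIF11 by -1.57 ± 0.15, the midbody protein CEP55 by -1.52 ± 0.17 and survivin (BIRC5) by -1.30 ± 0.14. Condensin subunit NCAPG fell from 882, 862 and 769 to 275, 295 and 213 (-1.63 ± 0.10, adjusted p = 2.28e-08). The proliferation antigen MKI67 changed by -1.34 ± 0.12. The 3 members of these lists that did not pass were MAD1L1 (-0.27 ± 0.13), the cohesin subunit SMC3 (0.01 ± 0.09) and STAG1 (-0.07 ± 0.11), named after their values were seen. Other SMC3 probe sets gave -0.57 to -0.02.

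Repair by homologous recombination, the Fanconi pathway and the replication checkpoint showed the same direction, with 24 of 28 genes lower, none higher and a median of -0.81. BRCA1 read 574, 516 and 631 at 24 h and 209, 174 and 146 at 48 h (-1.63 ± 0.13, adjusted p = 8.78e-08). RAD54L, a motor of strand exchange, changed by -1.54 ± 0.11 and EXO1, a nuclease of end resection, by -1.53 ± 0.11. Over the 7 lists of replication, mitosis and repair together, 165 of 173 genes fell and 0 rose, and in 165 the 48 h arrays lay below the 24 h arrays without overlap, as 17.2% of all genes tested did. Leaving out any array of either time left between 159 and 164 falls. In these bulk samples, fewer cells in S phase or mitosis and less of each RNA per cell cannot be told apart.

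The promoters of these genes were searched for the elements named above, to show what the falling genes carry next to their starts. The 250 bases before the start were taken from RefSeq (GRCh38.p14) for 9657 of the 11774 genes tested. The E2F sites counted were TTTCCCGC, TTTGGCGC, TTTCGCGC and TTTGCCGC and the CHR elements TTTGAA and TTCGAA, on both strands, where matches may share bases. An E2F site was found in 12 of 44 replication and nucleotide genes that fell (27.3%), in 8.39% of all genes that fell, in 4.15% of those that did not change and in 2.79% of all 27305 promoters of that length. It was also found in 3 of 10 p53 targets that rose (30%). A CHR element was found in 34 of 78 mitotic genes that fell (43.6%) and in 4 of the 44 replication genes (9.09%), against 15.4% of all genes that fell, 8.85% of those that did not change and 14.6% of all promoters. A CCAAT box (CCAAT) was found in 62.8% of the mitotic and 54.5% of the replication genes that fell, against 33.0% of all promoters. These are descriptions of sequence with no test, and a match is not evidence of binding.

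Promoters to print were taken in the order of the size of change, and only where a match lay in the 150 bases before the start. Genes with no such match or no promoter sequence were passed over, as were genes on a chromosome that was excluded from printing. A match was thus a condition of being shown. Shown here are the 150 bases before the start of 6 named genes with large falls, E2F1 and CDC25A with E2F sites and 4 mitotic genes with CHR elements, each read 5′ to 3′ on the strand of its gene, with the matched letters in capitals. They lie at chr3:48188418-48188567 (CDC25A, minus strand, match at -44 to -37), chr20:33686386-33686535 (E2F1, minus strand, -33 to -26 and -20 to -13, the farther match on the opposite strand), chr5:163460482-163460631 (HMMR, plus strand, -28 to -23 and -22 to -17), chr4:17810829-17810978 (NCAPG, plus strand, -35 to -30), chr12:53268149-53268298 (ESPL1, plus strand, -31 to -26) and chr10:92592980-92593129 (KIF11, plus strand, -28 to -23, on the opposite strand), where -1 is the base before the start.
CDC25A: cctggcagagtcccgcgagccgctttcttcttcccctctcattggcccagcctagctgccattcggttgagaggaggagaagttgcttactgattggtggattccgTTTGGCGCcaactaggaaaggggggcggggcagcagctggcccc
E2F1: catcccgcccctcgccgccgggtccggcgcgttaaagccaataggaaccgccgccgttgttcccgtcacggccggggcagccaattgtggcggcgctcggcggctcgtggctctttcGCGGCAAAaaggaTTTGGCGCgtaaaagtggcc
HMMR: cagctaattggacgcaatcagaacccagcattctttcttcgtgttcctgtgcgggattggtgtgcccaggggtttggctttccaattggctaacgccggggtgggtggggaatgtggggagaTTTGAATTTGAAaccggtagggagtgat
NCAPG: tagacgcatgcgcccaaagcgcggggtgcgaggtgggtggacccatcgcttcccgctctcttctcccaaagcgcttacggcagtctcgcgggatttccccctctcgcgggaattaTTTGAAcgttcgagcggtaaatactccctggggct
ESPL1: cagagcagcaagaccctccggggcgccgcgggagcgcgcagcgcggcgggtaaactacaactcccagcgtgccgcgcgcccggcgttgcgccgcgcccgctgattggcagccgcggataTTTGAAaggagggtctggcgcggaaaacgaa
KIF11: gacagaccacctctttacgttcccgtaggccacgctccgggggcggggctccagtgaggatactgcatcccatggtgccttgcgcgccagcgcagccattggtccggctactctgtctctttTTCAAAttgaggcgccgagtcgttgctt
In the 4 mitotic promoters shown, which were chosen for holding a match, the CHR matches lay between positions -35 and -17, and in HMMR a further match followed directly.

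Histone genes of S phase rose in part, against the direction of the other replication genes. Replication-dependent histone mRNAs normally end in a stem-loop without a poly(A) tail. Of 52 such genes listed, 20 were measured, 15 lay below the filter and 17 had no probe set of their own, so these counts do not describe the whole family. Of the 20, 9 rose and 1 fell (12.4% of all genes tested rose), with a median of 0.46. H2AC6 had the largest rise of any gene tested. It read 41.2, 42.6 and 47.1 at 24 h and 228, 217 and 426 at 48 h (2.30 ± 0.20, adjusted p = 2.83e-07), the third 48 h array standing far above the others. H2AC25 went from 141, 138 and 126 to 709.8, 593 and 895 (2.29 ± 0.19, adjusted p = 1.47e-07), H2BC5 changed by 1.86 ± 0.22 and H2BC12 by 1.65 ± 0.26. The other rises, named after their values were seen, were H2BC21 (1.25 ± 0.22), H2BC6 (1.02 ± 0.19), H2AC8 (0.95 ± 0.24), H2AC17 (0.73 ± 0.21) and H4C8 (0.65 ± 0.22). In all 9 the third 48 h array was the highest of its group, and without it 6 of them passed and the median of the 20 was 0.29. H2AC17 also lost its call without 24 h replicate 1 (adjusted p = 0.0676), and H4C8 lost its call without any 1 of the other arrays except 48 h replicate 2. H1-3, the member that fell (-0.96 ± 0.33, named after its value was seen), lost its call in 5 of 6 fits that left out 1 array of either time (adjusted p = 0.0936 without 24 h replicate 1, 0.114 without 24 h replicate 2, 0.181 without 48 h replicate 2, 0.0595 without 24 h replicate 3 and 0.104 without 48 h replicate 3). Coding sequences of these genes are near-identical in part, so signal may be shared between members. H2AX, the variant histone that marks DNA breaks and whose gene also gives polyadenylated mRNA, fell (-1.24 ± 0.13, adjusted p = 1.42e-06).

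Targets of p53 rose in part, in this interval and in the preceding one. Of 30 measured, 13 rose from 24 to 48 h and 2 fell (median 0.29), where 18 had risen and 0 fallen from 8 to 24 h (median 0.47, 2.54% of all genes tested rising in that interval). In limma's test of the difference between these intervals 0 of the 30 were called, where 3.07% of all genes tested were, and 8 had a lower change from 24 to 48 h at an unadjusted p under 0.05. RRM2B read 402, 417 and 438 at 24 h and 711, 894 and 1028 at 48 h (1.02 ± 0.10, adjusted p = 1.55e-06), all 48 h arrays above all 24 h arrays. TP53INP1, a p53 target with a role in autophagy and cell death, went from 342, 326 and 391 to 606, 639 and 758 (0.89 ± 0.11, adjusted p = 8.82e-06). The kinase PLK2 changed by 0.79 ± 0.16, CYFIP2 by 0.71 ± 0.09, SPATA18 by 0.69 ± 0.12, the death receptor gene TNFRSF10B by 0.50 ± 0.07 and the metabolic regulators SESN1 and TIGAR by 0.51 ± 0.12 and 0.49 ± 0.09, of which CYFIP2, SPATA18, TNFRSF10B, SESN1 and TIGAR were named after their values were seen. TNFRSF10B did not pass with the mean of its probe sets (adjusted p = 0.147). MDM2, which ubiquitinates p53, changed by 0.43 ± 0.11 (adjusted p = 0.00956), a call that was lost in fits without 1 array (adjusted p = 0.0638 without 24 h replicate 1 and 0.0534 without 48 h replicate 3); its other probe sets gave -0.06 to 0.68. The 2 that fell were TP53I11 (-0.95 ± 0.16), whose other probe set gave -0.44 and did not pass, and PMAIP1 (NOXA, -0.35 ± 0.09), named after its value was seen, which did not pass with the mean of its probe sets (adjusted p = 0.108). BAX gave 0.32 ± 0.18 (adjusted p = 0.237). A p53 response element was counted only as a pair of full consensus decamers at most 1 base apart. None was found in the 250 bases before the start of the 10 rising targets with a promoter sequence. It was found in 1 of 9657 tested genes (0.0104%) and in 5 of all 27305 promoters. With a pattern this rare, its absence from 10 promoters cannot set these targets apart from other genes.

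**Figure D3:**
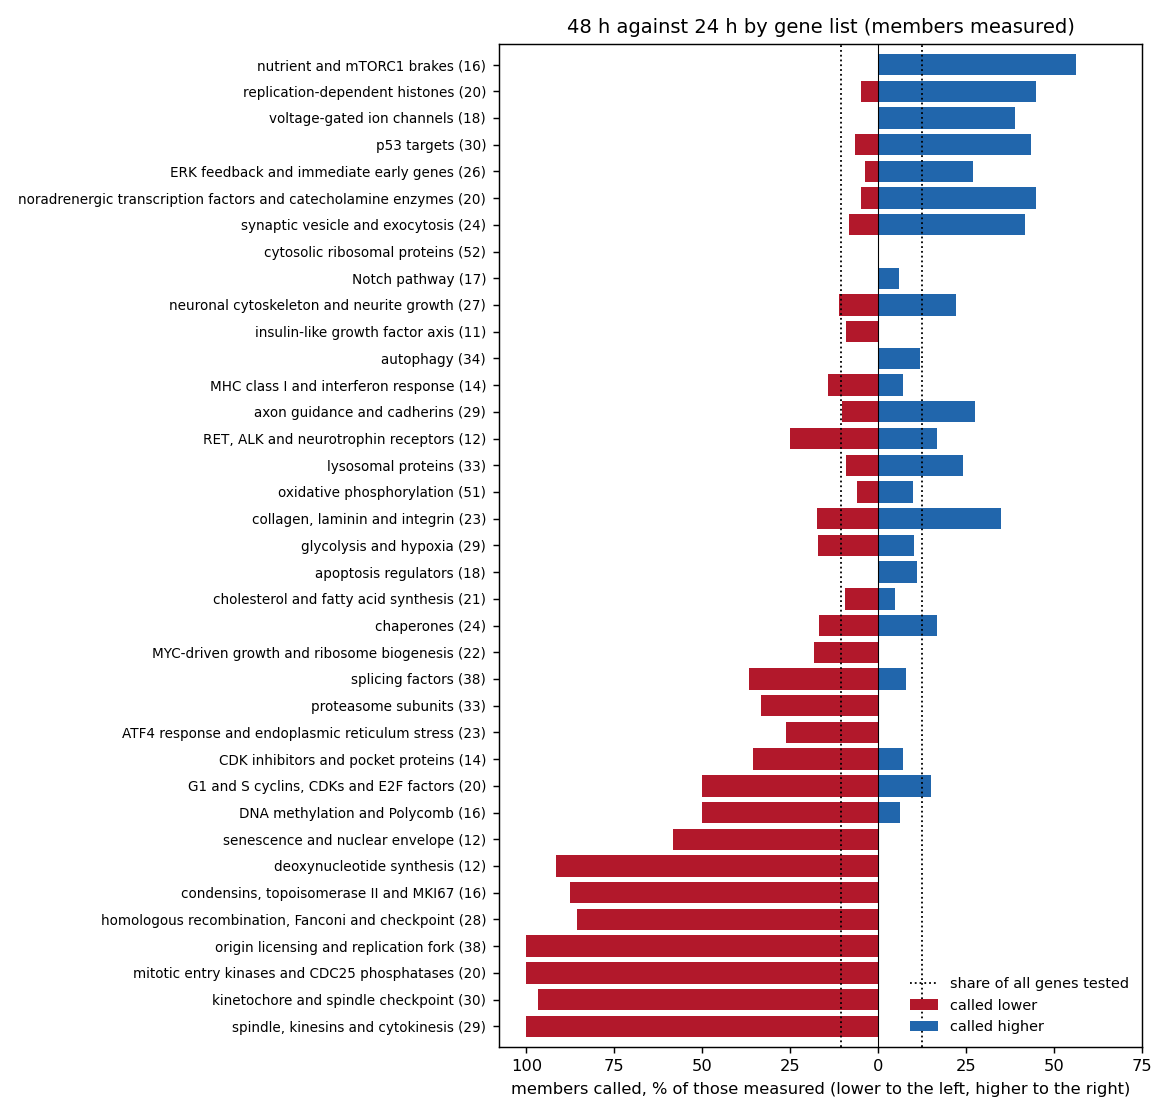
Share of the measured members of 37 gene lists called lower (bars to the left) or higher (bars to the right) at 48 h against 24 h, with the number measured in parentheses and the lists in the order of their median change. Dotted lines mark the shares of all genes tested, 10.5% lower and 12.4% higher. The 7 lists of replication, mitosis and repair have between 85.7% and 100% of their members lower, and the nutrient, histone, noradrenergic, p53 and synaptic lists have between 41.7% and 56.2% higher.

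Genes of the nuclear envelope and chromatin fell in part. Lamin B1 (LMNB1), whose loss is a known mark of senescent cells, read 945, 829 and 723 at 24 h and 410.4, 455 and 258 at 48 h (-1.15 ± 0.24, adjusted p = 0.00178). With it 7 of 12 members of the senescence and nuclear envelope list fell and 0 rose (median -0.42), including TMPO (-0.78 ± 0.11), HMGB3 (-0.63 ± 0.15) and HMGB2 (-0.56 ± 0.12). Of 16 genes of DNA methylation and Polycomb, 8 fell and 1 rose (median -0.31). Those that fell most were UHRF1 and DNMT1, which copy DNA methylation behind the fork (-1.38 ± 0.11 and -0.83 ± 0.07), and the helicase HELLS (-0.88 ± 0.15); the methyltransferase EZH2 changed by -0.56 ± 0.08. The member that rose was EZH1 (0.31 ± 0.09, named after its value was seen), and its call was lost in fits without 1 array (adjusted p = 0.0877 without 24 h replicate 1, 0.114 without 48 h replicate 2 and 0.0559 without 48 h replicate 3). Of 18 apoptosis regulators 2 rose (11.1%) and 0 fell (median 0.00). Rises were no more frequent there than among all genes tested (12.4%). BCL2, a survival gene, went from 79.4, 74.4 and 70.4 to 161, 160.3 and 147 (0.92 ± 0.10), although its other probe set gave -0.11. BCL2L1 gave 0.61 ± 0.18, a call lost in fits without 1 array (adjusted p = 0.0744 without 48 h replicate 1, 0.0605 without 24 h replicate 2 and 0.0558 without 24 h replicate 3).

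Among receptors of the sympathetic lineage RET rose most. RET, the receptor tyrosine kinase for ligands of the GDNF family, read 11.2, 21.9 and 40.0 at 24 h, close to background, and 108, 108 and 184 at 48 h (1.91 ± 0.30, adjusted p = 0.000134). All 48 h arrays lay well above the 24 h arrays, and the other RET probe sets gave 0.79 and 0.96. Its co-receptor GFRA1 fell (-0.65 ± 0.16), as did FGFR2 (-0.89 ± 0.17) and KIT (-0.59 ± 0.16), whose call was lost in fits without 1 array (adjusted p = 0.0889 without 24 h replicate 1 and 0.0741 without 48 h replicate 3). ALK gave 0.34 ± 0.11 (adjusted p = 0.0333), with groups that overlapped, and lost its call in fits without 1 array (adjusted p = 0.11 without 24 h replicate 1, 0.0967 without 48 h replicate 2, 0.121 without 24 h replicate 3 and 0.168 without 48 h replicate 3). With 2 of 12 higher (16.7%) and 3 lower (25%) the list had a median of 0.04. Of all genes tested 12.4% rose and 10.5% fell.

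Noradrenergic and neuronal genes rose in part. Of 20 noradrenergic transcription factors and catecholamine genes, 9 rose and 1 fell (median 0.25), and 5 rose when 48 h replicate 1 or 48 h replicate 2 was left out. SCG2 (secretogranin II) changed by 1.15 ± 0.21, the cofactor LMO3 by 1.09 ± 0.16 and the transcription factor ISL1 by 0.75 ± 0.11. DBH, which makes noradrenaline from dopamine, read 222, 173 and 243 at 24 h and 435, 333 and 329 at 48 h (0.74 ± 0.20, adjusted p = 0.0123); the groups did not overlap, and the call was lost in fits without 1 array (adjusted p = 0.0609 without 48 h replicate 1 and 0.0643 without 24 h replicate 2). The member that fell was INSM1 (-0.48 ± 0.10, named after its value was seen), and its other probe set gave 0.08. MYCN itself gave 0.18 ± 0.08 (adjusted p = 0.126), with 4817, 4672 and 4700.3 at 24 h and 6128, 4987 and 5036 at 48 h.

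Genes of neuronal structure and function were divided into 3 lists. Of 27 cytoskeleton and neurite genes 6 rose (22.2%) and 3 fell (11.1%), with a median of 0.07. Of all genes tested 12.4% rose and 10.5% fell, so the falls were near that share. The rises were 4 without 24 h replicate 1 or without 48 h replicate 2. Doublecortin (DCX), a microtubule protein of migrating neurons, went from 233, 233 and 174 to 688, 638 and 547 (1.49 ± 0.13, adjusted p = 3.3e-07). The intermediate filament genes PRPH (0.75 ± 0.10) and NEFL (0.61 ± 0.12) rose, while DPYSL2 (-0.51 ± 0.06), STMN1 (-0.47 ± 0.09) and MARCKS (-0.30 ± 0.08) fell, the last 2 named after their values were seen and the last losing its call in fits without 1 array (adjusted p = 0.0582 without 24 h replicate 3 and 0.0698 without 48 h replicate 3). Of 24 synaptic vesicle genes 10 rose and 2 fell (median 0.23), led by the small GTPases RAB3C (0.87 ± 0.20) and RAB3B (0.67 ± 0.13), the exocytosis factor CADPS (0.77 ± 0.14) and carboxypeptidase E, CPE (0.70 ± 0.10). The 2 that fell, named after their values were seen, were SV2A (-0.37 ± 0.08) and STX1A (-0.48 ± 0.13), the latter losing its call in fits without 1 array (adjusted p = 0.0588 without 24 h replicate 3 and 0.0586 without 48 h replicate 3). Of 18 voltage-gated channel genes 7 rose and 0 fell (median 0.30), among them the sodium channel subunits SCN3A (0.81 ± 0.16) and SCN3B (0.65 ± 0.09). That count was 4 without 24 h replicate 1, 3 without 48 h replicate 2, 4 without 48 h replicate 3 and 3 with the arrays centred on their medians.

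Of 29 axon guidance genes and cadherins 8 rose (27.6%) and 3 fell (10.3%), with a median of 0.06, and 5 rose without 48 h replicate 3. Of all genes tested 12.4% rose and 10.5% fell. The netrin receptor UNC5C changed by 1.27 ± 0.15 and the semaphorin co-receptor NRP1 by 0.99 ± 0.17. Protocadherin PCDH19 read 66.0, 54.3 and 54.8 at 24 h and 13.6, 16.3 and 12.4 at 48 h and so came close to background (-1.30 ± 0.19, adjusted p = 6.8e-05). Of 23 collagen, laminin and integrin genes 8 rose and 4 fell (median 0.01), and the counts without 1 array of either time lay between 4 and 6 for the rises and 1 and 3 for the falls. LUM (lumican), also a member of the fibroblast list whose summed signal was higher at 48 h, changed by 1.37 ± 0.20 and COL11A1 by 0.65 ± 0.13. IGFBP5, a binding protein of insulin-like growth factors, went from 262, 253 and 169.5 to 85.1, 84.2 and 48.4 (-1.47 ± 0.23, adjusted p = 0.000168). It was the member called lower among 11 of that axis (9.09%, against 10.5% of all genes tested).

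Genes that respond to signalling and nutrients rose in part. Of 26 ERK feedback and immediate early genes 7 rose and 1 fell (median 0.27), and 11 rose without 24 h replicate 3 while 2 fell without 24 h replicate 1 or 48 h replicate 3. The ERK phosphatases DUSP6 and DUSP4 changed by 1.07 ± 0.26 and 1.04 ± 0.20, ARC by 1.20 ± 0.23 and EGR1 by 0.95 ± 0.17. In DUSP6, DUSP4 and EGR1 the third array was the highest of its group at 24 h and at 48 h. NR4A2, the member that fell, gave -0.63 ± 0.15 and was named after its value was seen. Of 16 genes that restrain growth when nutrients are short 9 rose and 0 fell (median 0.46), and 5 rose with the arrays centred. DDIT4 (REDD1), an inhibitor of mTORC1, read 471, 456 and 372 at 24 h and 799, 792 and 723 at 48 h (0.82 ± 0.19, adjusted p = 0.004). Sestrin 3 (SESN3) changed by 1.02 ± 0.18. In that list 3 members had risen from 8 to 24 h, with a median of 0.12, where 2.54% of all genes tested rose.

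Genes of growth and protein handling fell in part and by less. Of 33 proteasome subunits 11 fell and 0 rose (median -0.17), where 21 had fallen from 8 to 24 h (median -0.29, 3.24% of all genes tested falling). The regulatory subunits PSMD1 (-0.56 ± 0.10), PSMC3 (-0.47 ± 0.11) and PSMD14 (-0.46 ± 0.07) fell most. Of 23 genes of the ATF4 response and endoplasmic reticulum stress 6 fell and 0 rose (median -0.20), with the amino acid transporter SLC7A5 at -0.90 ± 0.14 and PHGDH, the entry enzyme of serine synthesis, at -0.80 ± 0.09. Of 38 splicing factors 14 fell and 3 rose (median -0.16), counts that were 6 and 0 without 48 h replicate 3 and 8 and 1 without 24 h replicate 1; without 48 h replicate 2, 7 fell. HNRNPF, HNRNPD and SF3B4 changed by -0.50 ± 0.11, -0.46 ± 0.07 and -0.49 ± 0.08. None of 52 cytosolic ribosomal proteins passed by limma's test (range -0.14 to 0.25, median 0.13, 7 higher at an unadjusted p under 0.05), whereas 13 were higher and 1 lower after quantile normalisation, and 2 and 3 were higher without 24 h replicate 1 and 48 h replicate 2. The remaining lists, of MYC-driven growth, the Notch pathway, glycolysis, lipid synthesis, lysosome, autophagy, the interferon response, oxidative phosphorylation and chaperones, had medians between -0.11 and 0.13. Between 0% and 24.2% of their members rose and between 0% and 18.2% fell.

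Some of the largest rises lay outside these lists. CXCR4, the receptor of the chemokine CXCL12, read 199, 164 and 233 at 24 h and 544, 631 and 863 at 48 h (1.68 ± 0.24, adjusted p = 4.74e-05), and its other probe sets gave 1.56 and 1.60. HDAC9, a class IIa histone deacetylase, went from 22.2, 21.4 and 35.6 to 95.1, 102 and 206 (1.77 ± 0.23), and ENPP2 (autotaxin), which makes lysophosphatidic acid, from 33.4, 43.7 and 24.3 to 141, 136 and 95.1 (1.49 ± 0.21). All 3 were named as largest rises, for which lack of overlap between the 24 h and 48 h arrays was a condition. Of all genes tested 23.1% were higher without overlap. TMT1A, a methyltransferase, changed by 1.50 ± 0.17, NELL1, a secreted protein, by 1.82 ± 0.24, SLC44A5, a transporter-like protein, by 1.76 ± 0.15 and MYCT1 by 1.77 ± 0.36. LOC90246 (1.54 ± 0.21) and the globin gene HBQ1 (1.50 ± 0.35) started from signals between 1.7 and 25, where a log2 difference depends on the offset. Among the largest falls outside the lists were PBK, a mitotic kinase (-1.79 ± 0.16), SHCBP1 (-1.74 ± 0.15) and CDCA3 (-1.68 ± 0.15).

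The change from 24 to 48 h was then tested against the change from 48 to 72 h, an interval of the same length that shares the 48 h arrays. The 2 changes differed in 39 of 11774 genes (0.331%), with 16 differences higher and 23 lower. The cell-cycle genes as a class kept falling: from 48 to 72 h 136 of the 173 fell (6.14% of all genes tested fell), with a median of -0.74 after -1.06. Of the 20 histone genes 10 rose in that interval (4.54% of all genes tested rose), with a median of 0.62. Among those that differed, E2F1 changed by -1.57 ± 0.12 in the interval described and by -0.19 ± 0.12 in the next (difference -1.38 ± 0.20, adjusted p = 0.0181). CDC25A changed by -1.95 ± 0.15 and then by -0.42 ± 0.15 (difference -1.52 ± 0.25, adjusted p = 0.0181), and TK1, RAD54L, PSMC3IP and H2AX likewise had the larger fall before 48 h (differences -1.04, -1.18, -1.07 and -1.04). E2F1 averaged 113 at 48 h and 96.0 at 72 h.

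Other genes turned. DBH had risen from a mean of 213 to 365 and stood at 144 at 72 h (72 h minus 48 h -1.29 ± 0.20, difference between the intervals 2.03 ± 0.35, adjusted p = 0.0208). ARHGAP36 rose by 0.88 and then fell (-0.59 ± 0.13), and the glutamine transporter SLC1A5 fell by 0.67 and then rose (0.45 ± 0.12). ABAT, which degrades GABA, MIR100HG, DNAJC12 and TRAPPC6A rose before 48 h and gave differences of 1.23, 1.08, 1.08 and 1.26, but were not called lower after it. PHLDB2 fell more after 48 h than before (-0.54 ± 0.10 and -1.47 ± 0.10). The count of genes that differed varied with single arrays: 0 genes were called without 48 h replicate 1 or 48 h replicate 3 and 2 without 48 h replicate 2. Leaving out 24 h replicate 1 or 3, 72 h replicate 1, 8 h replicate 2 or any 0 h array gave 12 to 25, and leaving out 24 h replicate 2, 72 h replicate 2 or 8 h replicate 3 gave 59 to 101. In a limma fit of these 3 times alone, 0 passed (1619 had an unadjusted p under 0.05, against 1693 in the full fit). At an unadjusted p under 0.05, 1606 and 1175 genes differed without 48 h replicate 1 and 48 h replicate 3.

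**Figure D4:**
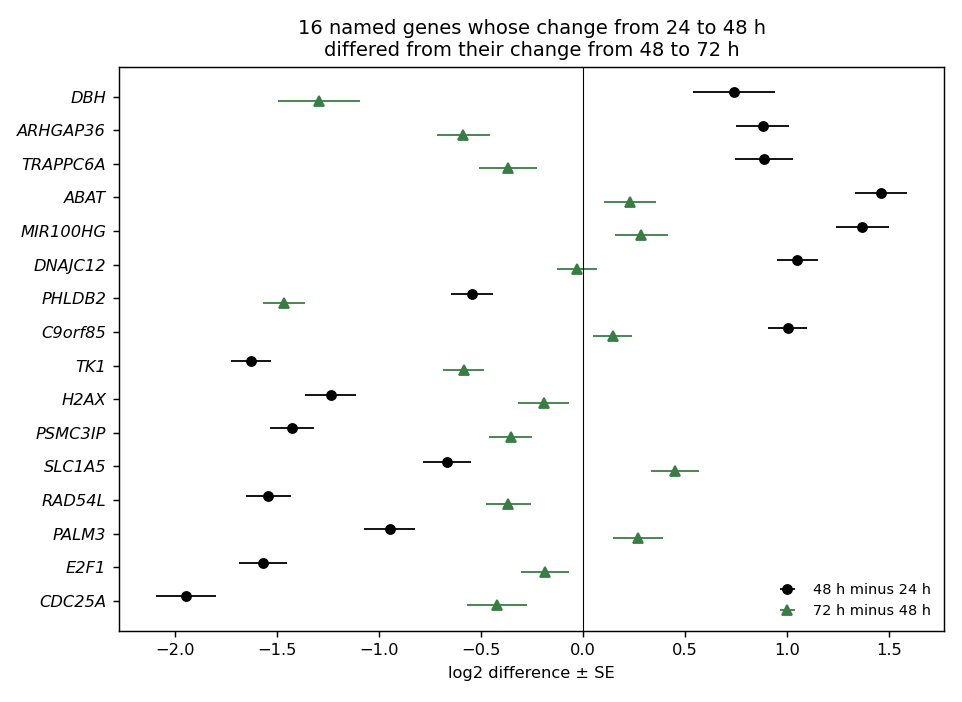
Change from 24 to 48 h (circles) and from 48 to 72 h (triangles) of the 16 named genes whose changes in the 2 intervals differed, as log2 difference with the standard error of the fit as bars. CDC25A and E2F1 lie at -1.95 and -1.57 in the earlier interval and at -0.42 and -0.19 in the later, and DBH lies at 0.74 and then at -1.29.

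Against the change from 8 to 24 h, an interval of 16 h that shares the 24 h arrays, 362 genes differed (3.07%), 116 higher and 246 lower. Cell-cycle genes were many of the lower differences. From 8 to 24 h, 14 of the 173 fell (median -0.16), where 3.24% of all genes tested fell. In 25 of 38 replication-fork genes and 20 of 29 spindle genes the later change was lower by this test (2.09% of all genes tested). E2F1 changed by 0.12 ± 0.12 from 8 to 24 h (difference -1.69 ± 0.20, adjusted p = 0.000446), CENPU of the kinetochore by 0.01 ± 0.11 (difference -1.47 ± 0.19) and the histone chaperone ASF1B by 0.00 ± 0.14 (difference -1.54 ± 0.23). E2F7, SPC25, AURKB, CDC25A and MYBL2 had differences between -1.59 and -1.47. Among the higher differences were H2AC6 (1.36 ± 0.35), H2AC25 (1.27 ± 0.32), DUSP4 (1.36 ± 0.35), the antisense transcript SSTR5-AS1 (1.58 ± 0.40) and the noncoding RNAs MIAT (1.27 ± 0.33) and LINC00839 (1.20 ± 0.22). Because the intervals differ in length, the change per hour was compared too, which was chosen after the data were seen: 143 genes then differed, 70 higher and 73 lower. The list counts above come from the test of unequal intervals, where a steady fall also gives a lower later change. They were not made per hour. Leaving out 24 h replicate 1, 2 or 3 gave 151, 211 and 170 genes, and leaving out 48 h replicate 3 gave 219.

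A small group of genes reversed between these intervals. IDS, a lysosomal sulfatase, read means of 549.7 at 8 h, 320.0 at 24 h and 531 at 48 h, with changes of -0.75 ± 0.10 and then 0.70 ± 0.10 (difference 1.45 ± 0.18, adjusted p = 0.000446). DNAJC6, SHC1, QPRT, PLCB1 and LIPA did the same, with later rises of 0.76, 0.72, 0.74, 0.49 and 0.54 after falls of between 0.31 and 0.61. SV2A and COL2A1 went up and then down, with later changes of -0.37 and -0.41, and the call of COL2A1 was lost in fits without 1 array (adjusted p = 0.0548 without 24 h replicate 2). That of PLCB1 was lost with the mean of its probe sets (adjusted p = 0.0767). SHC1, QPRT, PLCB1, SV2A and COL2A1 were named after their values were seen. Both changes of each gene use the same 24 h arrays.

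**Figure D5:**
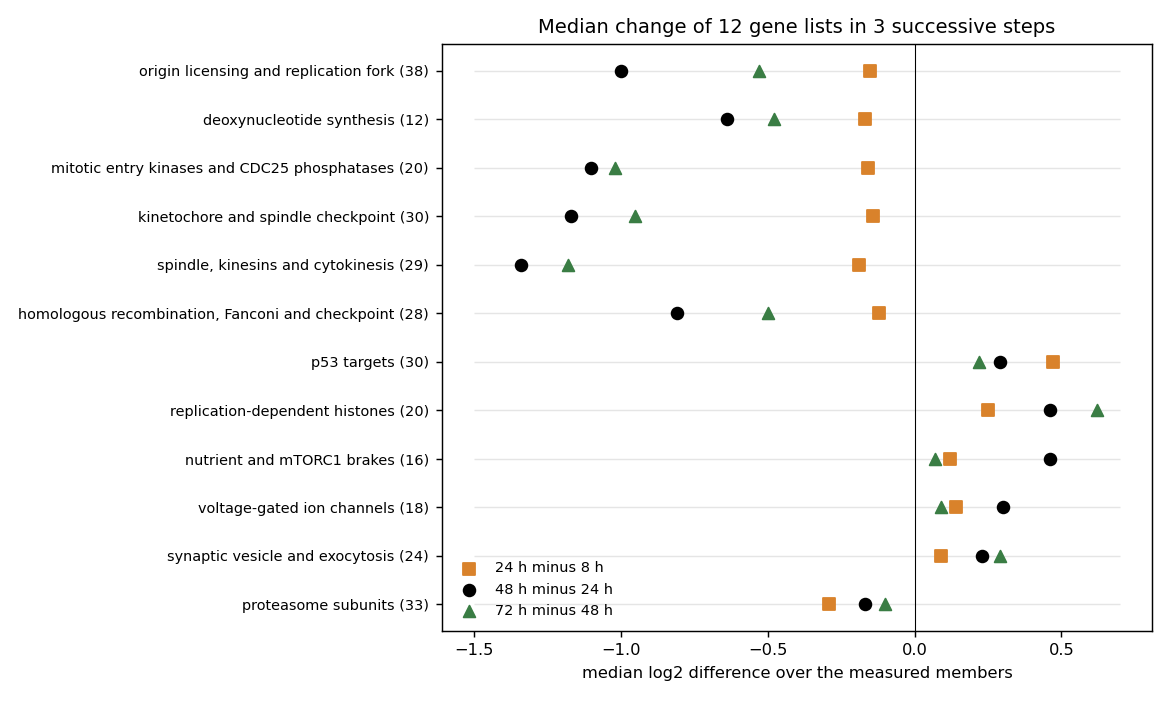
Median log2 difference of 12 gene lists in the intervals from 8 to 24 h (squares), 24 to 48 h (circles) and 48 to 72 h (triangles), with the number of measured genes in parentheses; neighbouring intervals share 3 arrays. The replication and mitosis lists sit between -0.19 and -0.12 in the earliest interval and between -0.64 and -1.34 from 24 to 48 h, while the p53 and proteasome lists each have their median farthest from 0 in the earliest interval, at 0.47 and -0.29.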

How the data were processed

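Per the labels' protocols, 4 µg of total RNA per array was labelled with a one-cycle kit, and per the submitters' processing notes MAS5 and GCOS were used, with versions not given in the sources used here. The deposited table holds 1 linear intensity per probe set and array, 54675 probe sets in all, without detection calls or counts, so that the number of arrays limits the precision. With 2% of values trimmed at each end, every array has the same mean of 100.01, so the deposited values were scaled to a common level.

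From these values log2(signal + 16) was fitted with limma 3.58.1 (lmFit and eBayes with a trend, R 4.3.3), all 15 arrays in 1 fit of 5 groups with no covariate and 10 residual degrees of freedom. Probe sets with a mean under the median of all (a signal of 16.59) were left out, as were 62 control probe sets. Of all probe sets, 41091 name 1 gene, 1801 several and 11721 none in GEO's platform annotation; the brightest probe set stood for its gene, which left 11774 genes. Adjusted p-values are Benjamini-Hochberg values over these genes, with a threshold of 0.05, and the fit was tested on simulated data.

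The gene lists, the interval and the genes named were chosen with earlier results of these data known, and lists are described by counts with no test of their own. Named were the 14 largest rises and falls without overlap between arrays, up to 4 called members of each list with the largest change, 20 sentinel genes, and the 8 largest differences in each direction from the neighbouring intervals. A further 32 genes, ACTA2 among them, were added once their values had been seen. Other probe sets above the filter existed for 105 of the 199 named genes called, and in 33 none of these was called in the same direction. Promoter sequences came from RefSeq. Alternatives were other offsets, scaling, filters, probe set rules, array weights, a replicate block and each array left out.

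The correlation of deviations between arrays of the same replicate number at 24 and 48 h was 0.17, 0.067 and 0.156. Between arrays of different numbers it lay between -0.163 and -0.01. The labels give no pairing, and for that reason the numbers were not taken as pairs in the main fit. These values do not exclude a shared origin of arrays with the same number. With the number as a block, 3188 genes changed from 24 to 48 h, against 2702. Figures were drawn with Python 3.11.15 and matplotlib 3.10.9.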

Additional observations from a re-analysis of the deposited data

Results flagged for a closer look

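Genes whose change from 24 to 48 h differed from that of a neighbouring interval were picked out by a limma test of the difference itself. Against the interval from 48 to 72 h, 39 genes differed, and 8 of them were called in opposite directions in the 2 intervals, ARHGAP36 and DBH up and then down and SLC1A5 and SV2A among those down and then up. Against the interval from 8 to 24 h, 362 genes differed, and 26 were called in opposite directions, with IDS down and then up. Each pair of intervals shares 3 arrays. Among probe sets that name no gene in the annotation, which entered no comparison of genes and were tested only among all probe sets singly, 286 of 3417 changed from 24 to 48 h (8.37%, 183 higher and 103 lower), against 15.7% of probe sets that name 1 gene.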

How the results depend on the processing

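The count of genes that changed from 24 to 48 h was 2702. It was 4063 with all probe sets tested singly, 233 with a log2 change of at least 1 asked for in addition and 1467 without replicate 3 of both times, an alternative chosen after seeing the data, and lay between 1887 and 2967 with 1 array left out. With the replicate number as a block it was 3188. The difference from the 48 to 72 h interval, 39 genes, was called for 70 with a pseudocount of 64, 72 after quantile normalisation, 7 with arrays centred, 12 with no filter, 69 among the brightest 25%, 17 with probe sets tested singly, 19 with no trend, 317 with array weights, 181 with the replicate block, 0 with the groups compared alone, 0 without replicate 3 of 24 h and 48 h (942 at an unadjusted p under 0.05 in limma), 15 with a log2 change of at least 1, and 0 to 101 with 1 array left out. The difference from the 8 to 24 h interval, 362 genes, was called for 233 with no filter, 588 with array weights, 613 with the replicate block, 143 per hour, 119 without replicate 3 of both times, 145 with a log2 change of at least 1, and 151 to 497 with 1 array left out. The cause of these shifts was not tested. Of the 199 named genes called, 146 kept their direction and their call in every one of 27 settings that gave them a value (50 had none among the brightest 25%, and each other setting gave one for at least 197), 53 lost the call in at least 1, 17 of them with arrays centred, and 0 reversed. Signals near background, as for RET at 24 h, are limited in precision by the offset.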
